A study of Homo sapiens with 12 samples.

Results

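Dual-specificity MAP kinase phosphatases are enzymes that remove the activating phosphates from both the threonine and the tyrosine of a MAP kinase. The 10 genes described here, DUSP1, DUSP2, DUSP4, DUSP5, DUSP6, DUSP7, DUSP8, DUSP9, DUSP10 and DUSP16, were chosen by symbol and make up the catalytically active family with a kinase-binding domain. All 10 were found among 26372 gene symbols, and all 10 passed a filter that kept the 13456 features reaching 1 FPKM in any group. FPKM is a level of RNA fragments scaled by transcript length and library size. RNA had been measured by sequencing of polyadenylated transcripts in HCT116, an established human colorectal carcinoma cell line. Wild-type cells (WT) were set beside cells knocked out for KDM3A (KO), a histone H3 lysine demethylase, and whether KO was 1 clone is not given in the sources used here. Each genotype was sampled in 3 states: mock (normal culture), starved (medium without serum) and refed (fetal bovine serum returned after 24 h without it). The time from serum addition to harvest is not given in the sources used here. The labels list 2 samples per group and 12 in all, but each of the 6 groups has 1 deposited value per gene, so differences between single groups have no replicate check and no p-value. Whether the labelled pairs came from separate cultures, and the read depth of each, are not given in the sources used here.

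These phosphatases close negative feedback loops: kinases of the ERK, JNK and p38 branches drive transcription of the enzymes that later switch them off. By location and preferred substrate they are commonly divided into 3 classes. DUSP1, DUSP2, DUSP4 and DUSP5 are nuclear and encoded by growth factor- or stress-induced early genes; DUSP5 is selective for ERK. DUSP6, DUSP7 and DUSP9 are cytoplasmic and prefer ERK. DUSP8, DUSP10 and DUSP16 prefer JNK and p38. Several of the ERK-directed members are known as transcriptional readouts of ERK activity.

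KDM3A itself was at 41.3, 17.8 and 19.8 FPKM in WT mock, starved and refed cells and at 3.15, 3.01 and 3.59 FPKM in the same KO states, between 7.64% and 18.2% of WT. Of 10 colorectal epithelial markers 8 were at 1 FPKM or more in every group, the others being CDX1 and VIL1. The summed level of the 10 was 2268 to 2715 FPKM in WT and 4959 to 6136 FPKM in KO, mostly from KRT8, KRT18 and KRT19. WT mock stood apart in endothelial transcripts. All 16 endothelial markers were at 1 FPKM or more there against 3 of 16 in each other group, and 15 were at least 2-fold above every other group. This list followed genes that earlier results of these data had shown to be high in WT mock. These counts were thus largely fixed in advance and are a description. Without EGFL7, which was at 44.2 to 84.3 FPKM in the 6 groups, the endothelial sum was 225 FPKM in WT mock and 6.23 to 9.04 FPKM elsewhere; CDH5, TEK, EMCN and ERG were listed at 0 in KO mock. In bulk RNA, fewer cells of a type and less RNA per cell cannot be told apart. Fibroblast and leukocyte markers did not set WT mock apart, with sums of 18.8 to 50.8 and 0.530 to 0.886 FPKM over the groups and only COL1A1 at 1 FPKM or more. No phosphatase was among the 95 features 4-fold or more higher in WT mock than in all other groups, and none had its highest value there. The part of the endothelial transcripts in comparisons that use WT mock was not tested. WT mock also stood apart in FPKM summed over all features, 1.15e+06 beside 481036 to 629410 in the other groups. Features at 0 numbered 6401 in WT mock, 4300 in WT starved, 4301 in WT refed and 7075 to 7312 in the KO groups. What these differences between groups contribute was not tested either.

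Promoter sequences are shown for members that were over 2-fold higher in both genotypes after serum was returned. The part of these sequences in the serum response was not tested. RefSeq windows of 300 bases (250 before to 50 after a transcription start, build GRCh38.p14) matched 8 of the 10 members; DUSP4 and DUSP5 had no entry. Of those members, DUSP1 (chr5:172771146-172771445, minus strand), DUSP2 (chr2:96145391-96145690, minus strand) and DUSP8 (chr11:1572222-1572521, minus strand) are shown 5′ to 3′, with matches to the searched motifs in capitals.
DUSP1: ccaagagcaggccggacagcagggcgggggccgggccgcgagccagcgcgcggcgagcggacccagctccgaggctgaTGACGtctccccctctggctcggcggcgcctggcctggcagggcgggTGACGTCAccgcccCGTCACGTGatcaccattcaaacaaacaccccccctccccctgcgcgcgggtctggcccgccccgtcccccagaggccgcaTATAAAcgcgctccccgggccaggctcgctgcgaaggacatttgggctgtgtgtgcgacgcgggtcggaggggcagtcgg
DUSP2: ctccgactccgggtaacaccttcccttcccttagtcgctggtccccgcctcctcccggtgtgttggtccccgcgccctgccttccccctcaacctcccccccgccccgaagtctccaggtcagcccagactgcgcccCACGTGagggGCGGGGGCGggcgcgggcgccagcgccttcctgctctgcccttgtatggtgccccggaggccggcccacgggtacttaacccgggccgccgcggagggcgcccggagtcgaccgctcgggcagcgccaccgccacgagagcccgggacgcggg
DUSP8: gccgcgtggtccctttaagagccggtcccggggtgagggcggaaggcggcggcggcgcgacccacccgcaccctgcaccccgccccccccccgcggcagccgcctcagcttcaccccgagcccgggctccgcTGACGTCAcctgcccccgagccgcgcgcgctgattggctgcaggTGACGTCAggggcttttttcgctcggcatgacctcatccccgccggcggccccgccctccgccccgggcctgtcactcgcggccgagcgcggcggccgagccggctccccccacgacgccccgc
The motifs searched on both strands were the cAMP response element (CRE) TGACGTCA, its core TGACG, the AP-1 site TGANTCA, the E box CACGTG, the EGR site GCGGGGGCG, the TATA box TATAAA and the CArG box bound by serum response factor. Each full CRE contains the core on both strands. The full CRE occurred once in the DUSP1 window, starting 125 bases before the start site. The DUSP8 window held a pair of them, starting 118 and 74 bases before it. Over all 35116 windows of this length, 1.85% held a full CRE. DUSP1 held further copies of the core outside its CRE, starting 172 and 111 bases before the start site. The second of these overlaps an E box, and a TATA box, held by 11.5% of windows, begins 30 bases before the start. DUSP2 had no CRE core, which 24.6% of all windows held; it had an E box starting 113 and an EGR site starting 103 bases before its start, motifs found in 7.26% and 5.07% of windows. None of the 8 members had an AP-1 site or a CArG box in these windows (7.71% and 1.29% of all windows), and no match says only that those letters are not there. The windows of DUSP6, DUSP7, DUSP9 and DUSP16 held none of the 7 motifs, and 1 of the 2 DUSP10 windows held the CRE core alone.

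Serum re-addition gave the largest differences in the family, and they lay in the nuclear class and DUSP8. DUSP5, the nuclear ERK phosphatase, was at 23.9 FPKM in WT starved and 399.8 FPKM in WT refed cells, and at 34.3 and 300.4 FPKM in KO. That is 16.7-fold in WT and 8.77-fold in KO, and in WT refed cells DUSP5 lay above 98.9% of the features compared. DUSP1, which acts on p38 and JNK as well as ERK, went from 5.24 to 77.1 FPKM in WT and from 6.70 to 115 FPKM in KO, or 14.7-fold and 17.2-fold. DUSP2 went from 9.49 to 107 FPKM in WT and from 10.5 to 86.8 FPKM in KO, or 11.3-fold and 8.24-fold. DUSP4, which acts on ERK and JNK, had smaller ratios: 12.0 to 59.9 FPKM in WT and 21.4 to 111 FPKM in KO, or 4.97-fold and 5.19-fold. DUSP8 went from 1.95 to 11.3 FPKM in WT and from 2.78 to 16.1 FPKM in KO, or 5.81-fold and 5.79-fold. For these 5 genes both refed values were above all 4 mock and starved values.

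**Figure D1:**
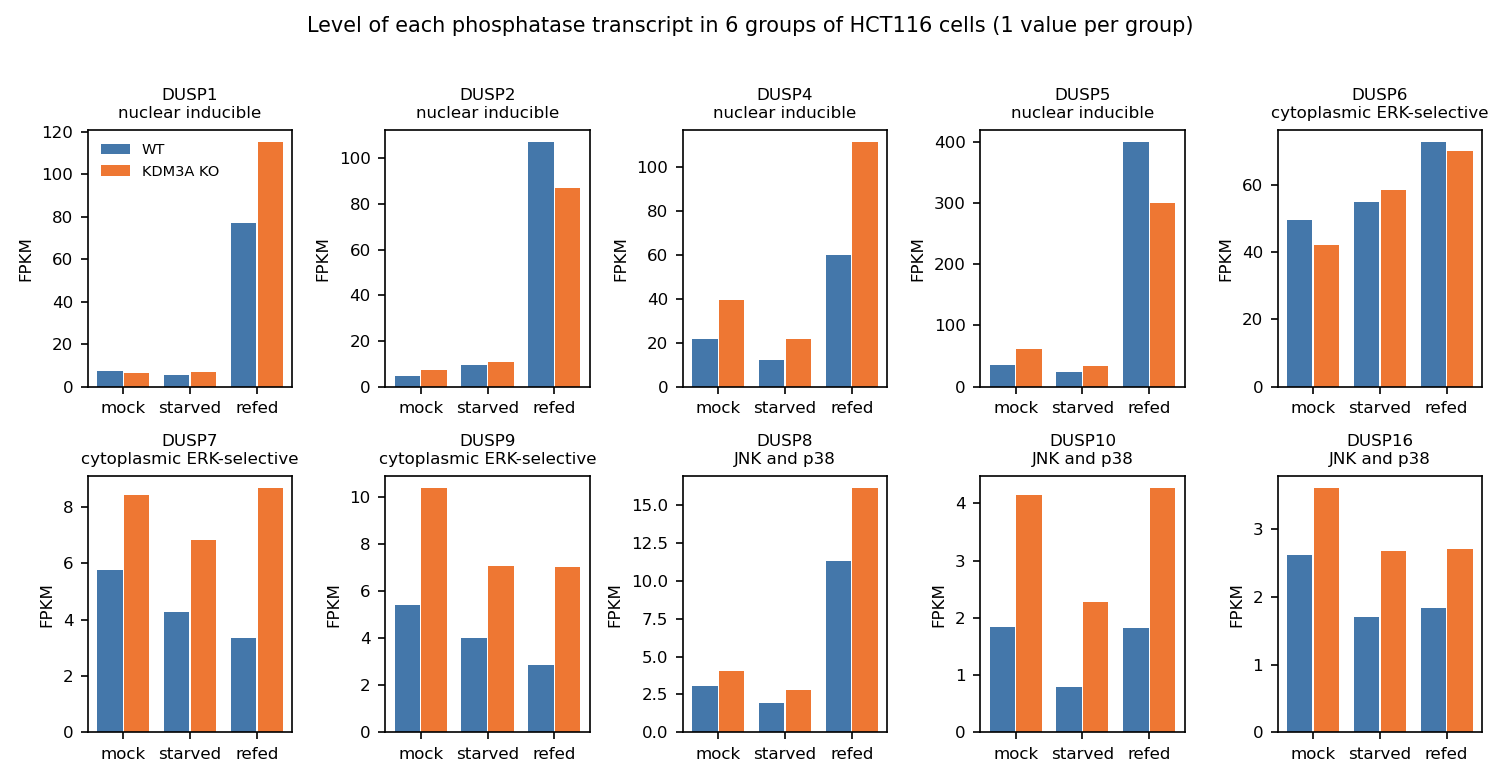
Level of each of the 10 transcripts (y axis, FPKM, a separate scale per panel) in mock, starved and refed cells (x axis), with WT in blue and KO in orange; each bar is the single deposited value of a group. The refed bars of DUSP1, DUSP2, DUSP4, DUSP5 and DUSP8 stand above all their mock and starved bars, and the KO bars of DUSP4, DUSP7, DUSP8, DUSP9, DUSP10 and DUSP16 stand above the WT bars in all 3 states.

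The other 5 members differed less. DUSP6, the cytoplasmic ERK phosphatase and a standard ERK readout, was already abundant: 49.7, 54.9 and 72.7 FPKM in WT mock, starved and refed cells and 42.2, 58.4 and 70.0 FPKM in KO. Its refed values were 1.32-fold and 1.20-fold the starved values in WT and KO. DUSP10, a JNK and p38 phosphatase, had refed values near its mock values: it was at 1.84, 0.799 and 1.81 FPKM in WT cells and at 4.14, 2.28 and 4.26 FPKM in KO. DUSP7 and DUSP9, close relatives of DUSP6, were lower in WT refed than in WT starved cells. DUSP7 was at 5.76, 4.28 and 3.34 FPKM in WT cells and at 8.42, 6.82 and 8.67 FPKM in KO. DUSP9 was at 5.41, 3.997 and 2.85 FPKM in WT cells and at 10.4, 7.04 and 7.02 FPKM in KO. DUSP16, a JNK-directed member, was at 2.62, 1.70 and 1.84 FPKM in WT cells and at 3.61, 2.67 and 2.71 FPKM in KO, with starved and refed values nearly equal.

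Differences were then put on the log2(FPKM + 1) scale, which understates the change of low genes, and counted at 2-fold or more. Refed against starved, 5 of 10 members were higher in WT and 5 of 10 in KO, the same 5 named above, where 1.69% and 1.98% of all 13456 features were higher. No member was lower (0.684% and 0.446% of all features). The log2 ratios in WT and KO were 4.01 and 3.10 for DUSP5, 3.65 and 3.91 for DUSP1, 3.36 and 2.93 for DUSP2, 2.22 and 2.32 for DUSP4, and 2.06 and 2.18 for DUSP8. In WT these ranked 21, 26, 30, 70 and 82 from the top of all features. The median over the 10 members was 1.35 in WT and 1.43 in KO, beside -0.03 and 0.01 over all features. Against mock instead of starved cells, the same 5 were higher in both genotypes (1.89% of all features in WT and 2.36% in KO), led by DUSP2 in WT with 23.9-fold and DUSP1 in KO with 18.1-fold; no member was 2-fold lower, beside 4.21% and 0.944% of all features.

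With limma, genotype and state were fitted as additive terms to the 6 values, and the 2 degrees of freedom that remain hold only their interaction. The p-values, adjusted over all 13456 features by the Benjamini-Hochberg method, thus weigh a difference against its unevenness across genotypes or states and carry no information on replicate error. From here "rose" and "fell" mean an adjusted p under 0.05. Averaged over genotypes, 5 of 10 members rose from starved to refed, where 0.773% of all features rose, and 0 fell, where 0.052% did; 7 had an unadjusted p under 0.05, all of them higher. DUSP4 rose by log2 2.27 (SE 0.07, limma adjusted p = 0.00386) and DUSP8 by 2.12 (SE 0.07, adjusted p = 0.00386). DUSP1 rose by 3.78 (SE 0.19, adjusted p = 0.00834), DUSP2 by 3.15 (SE 0.22, adjusted p = 0.0189) and DUSP5 by 3.55 (SE 0.30, adjusted p = 0.0281). DUSP10 averaged 0.66 (SE 0.08) with adjusted p = 0.0581, and DUSP6 averaged 0.33 (SE 0.11) with adjusted p = 0.415. DUSP10 was called, as a sixth member, with a pseudocount of 0.1 (adjusted p = 0.0425), with median-ratio rescaling (0.0449) and without the features high in WT mock (0.0484). Leaving out 1 group leaves 1 residual degree of freedom, and between 0 and 19 of all features then rose, beside 104. Among the members 0 were called without WT starved, WT refed or KO starved, 1 without KO refed (DUSP5) and 3 without WT mock or KO mock (DUSP1, DUSP4 and DUSP8). The differences themselves stayed close for DUSP4 and DUSP8. Without WT starved, WT refed and KO starved DUSP4 had log2 2.31, 2.31 and 2.24 and DUSP8 2.14, 2.19 and 2.10. The other 3 moved more. Without WT refed and without KO refed DUSP5 had 3.03 and 4.07, DUSP2 2.81 and 3.48, and DUSP1 4.03 and 3.53. Without the filter at 1 FPKM 0 were called as well.

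Among the 10 members, DUSP5 had the largest difference in serum response between genotypes. Its log2 response in KO minus that in WT was -0.91, while the central 95% of all features lay between -0.35 and 0.52. DUSP2, at -0.44, and DUSP7, at 0.59, also lay outside that range. The range comes mostly from features that differed under 2-fold with serum, so it is not one of similarly induced genes. In WT and KO 1.69% and 1.98% of features were 2-fold higher with serum, and 0.684% and 0.446% lower. DUSP8, DUSP4, DUSP10 and DUSP16 differed by 0.11, 0.10, 0.04 and -0.06, and DUSP1 by 0.27. With 1 value per group these differences between responses have no test.

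**Figure D2:**
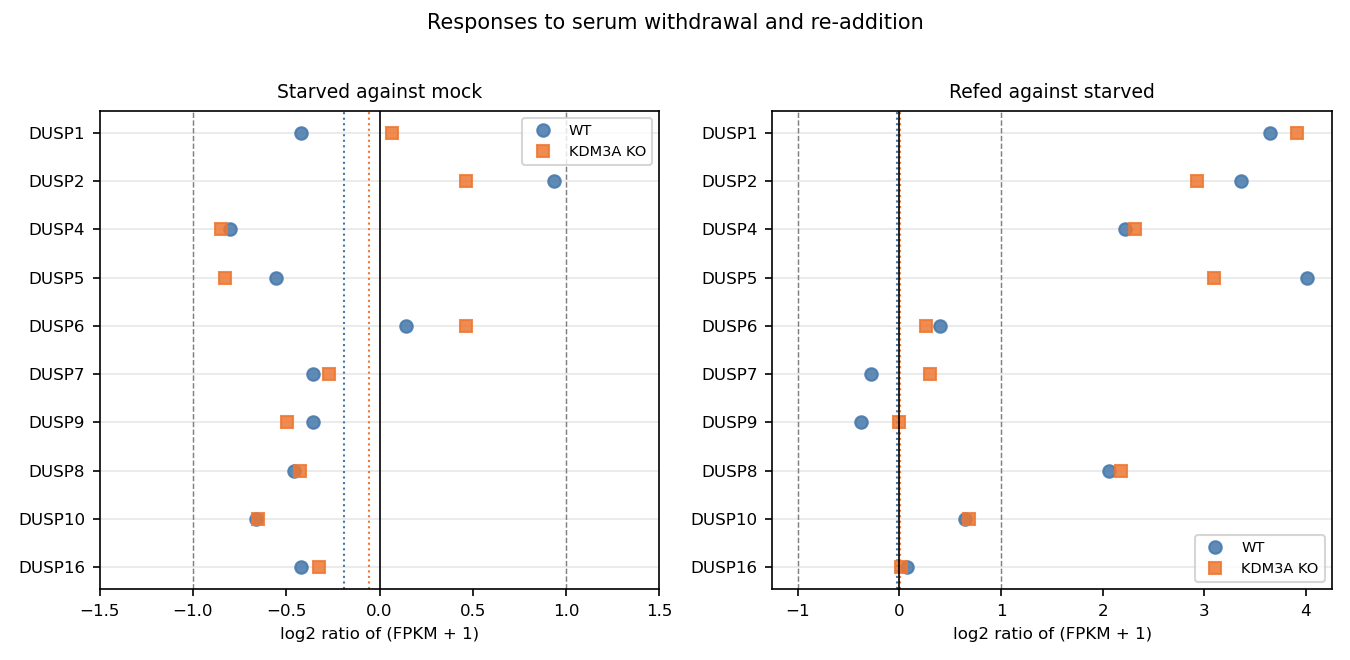
Log2 ratio of (FPKM + 1) for each member (x axis) in starved against mock cells (left) and refed against starved cells (right), with WT as blue circles and KO as orange squares; dotted lines are the medians of all 13456 features in each genotype and dashed lines mark 2-fold. On the right, DUSP1, DUSP2, DUSP4, DUSP5 and DUSP8 lie between 2.06 and 4.01 and the other 5 between -0.38 and 0.68; on the left all 10 lie within 2-fold.

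After serum withdrawal, differences in the family were under 2-fold on the log2(FPKM + 1) scale. In plain FPKM DUSP10, at low levels, was 2.31-fold lower in WT and 1.82-fold lower in KO. DUSP2 was 2.12-fold higher in WT and 1.43-fold higher in KO. Starved against mock, 0 of 10 members were 2-fold higher or lower in either genotype, where in WT 1.03% of all features were higher and 3.91% lower. The same shares in KO were 0.951% and 1.18%. DUSP4 was at 21.7 and 12.0 FPKM in WT mock and starved cells and at 39.3 and 21.4 FPKM in KO, 1.80-fold and 1.84-fold lower after starvation. DUSP5 was also lower after starvation, going from 35.7 to 23.9 FPKM in WT and from 61.5 to 34.3 FPKM in KO. DUSP2 went the other way, from 4.48 to 9.49 FPKM in WT and from 7.36 to 10.5 FPKM in KO. With median-ratio or upper-quartile rescaling DUSP2 passed 2-fold in WT.

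Averaged over genotypes, 5 of 10 members fell on starvation, where 19.4% of all features fell, and 0 rose, where 5.83% did; 2 higher and 5 lower members had an unadjusted p under 0.05. DUSP4 fell by 0.82 on the log2 scale (SE 0.07, limma adjusted p = 0.0170) and DUSP10 by 0.65 (SE 0.08, adjusted p = 0.0175). DUSP8, DUSP9 and DUSP16 fell by 0.44, 0.43 and 0.37 (adjusted p = 0.0234, 0.0489 and 0.0347). DUSP2 averaged 0.70 (SE 0.22, adjusted p = 0.0815) and DUSP6 0.30 (SE 0.11, adjusted p = 0.0999). The median of all features was -0.13, and after rescaling that removes most of this shift DUSP9 was no longer called with either method, DUSP16 was lost with upper-quartile rescaling, and DUSP6 rose with both (0.42 and 0.44). These averages use the WT mock value, in which endothelial transcripts were high; without it 0 members were called, DUSP4 and DUSP10 having log2 -0.82 and -0.64 with adjusted p = 0.0612 for both. DUSP1 had opposite signs with and without it (-0.18 and 0.13), and neither value was called. Leaving out WT starved, WT refed, KO starved or KO refed also left 0 calls; in these 5 fits at most 18 of all features fell, beside 2605. Without KO mock 5 members were called but not the same 5: DUSP9 was lost and DUSP2 rose (log2 1.05, adjusted p = 0.0412).

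The comparison of KO with WT asks how expression differs in cells knocked out for KDM3A. The same 6 members were higher in KO in all 3 states: DUSP4 among the nuclear phosphatases, DUSP7 and DUSP9 among the cytoplasmic ones, and all 3 of the JNK and p38 class. Of all 13456 features 54.3% were higher in KO in all 3 states, a share of 36.8% once values were rescaled by median ratios and 28.8% by upper quartiles. The same 6 members were higher in all 3 states with either rescaling. DUSP10 was 2.25-fold, 2.85-fold and 2.35-fold WT in mock, starved and refed cells, at low levels. DUSP4 was 1.81-fold, 1.78-fold and 1.85-fold WT. DUSP9 was 1.92-fold, 1.76-fold and 2.46-fold WT, and DUSP7 1.46-fold, 1.60-fold and 2.59-fold. DUSP8 and DUSP16 were between 1.34-fold and 1.57-fold WT in every state. DUSP6 differed little, at 0.848-fold, 1.06-fold and 0.963-fold.

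On the log2(FPKM + 1) scale 0 members passed 2-fold in mock or starved cells (2.27% and 2.59% of all features were higher, 3.22% and 1.46% lower). In refed cells 2 of 10 were higher, DUSP7 with 1.15 and DUSP9 with 1.06, where 3.41% of all features were higher, and 0 were lower (1.51% of all). After either rescaling neither passed. Medians over the members were 0.54, 0.47 and 0.52 in mock, starved and refed cells, beside 0.07, 0.19 and 0.22 over all features. DUSP1, DUSP2 and DUSP5 did not keep their direction across states. DUSP5 was higher in KO in mock and starved cells (log2 0.77 and 0.50) and lower in refed cells (-0.41). DUSP2 followed the same order with 0.61, 0.14 and -0.30, and DUSP1 the opposite one with -0.18, 0.31 and 0.57.

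**Figure D3:**
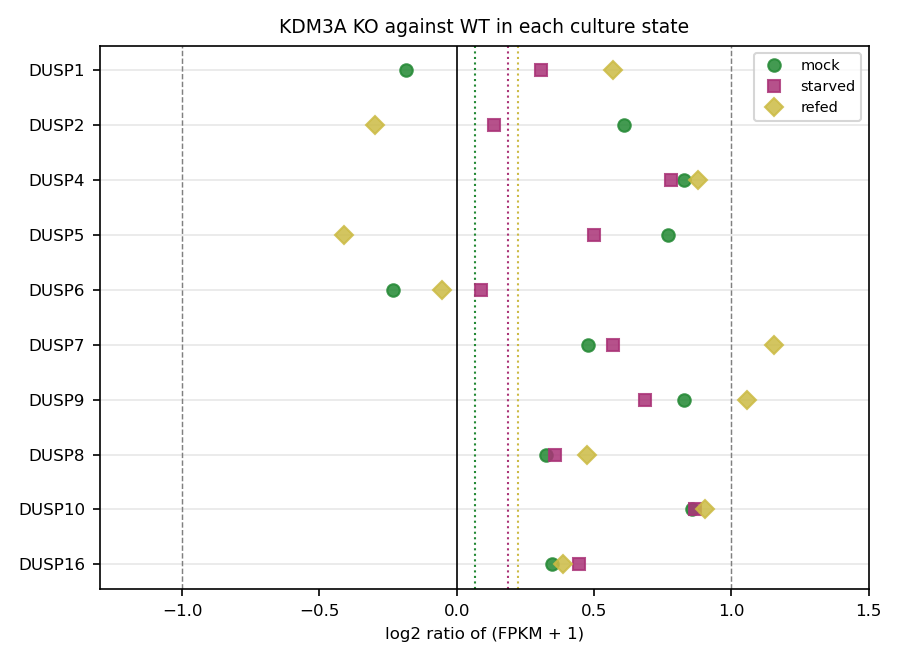
Log2 ratio of (FPKM + 1) in KO against WT (x axis) for each member, with mock as green circles, starved as purple squares and refed as yellow diamonds; dotted lines are the medians of all 13456 features in each state and dashed lines mark 2-fold. DUSP4 and DUSP10 have nearly equal values in the 3 states, and DUSP5 spans from -0.41 in refed to 0.77 in mock cells.

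Averaged over states, 6 of 10 members rose in KO, where 28.7% of all features rose, and 0 fell, where 4.58% did; the same 6 were the ones with an unadjusted p under 0.05. DUSP10 rose by log2 0.87 (SE 0.06, limma adjusted p = 0.00432), DUSP4 by 0.83 (SE 0.06, adjusted p = 0.00432), DUSP9 by 0.86 (SE 0.09, adjusted p = 0.00763) and DUSP7 by 0.73 (SE 0.15, adjusted p = 0.0264). DUSP8 and DUSP16 rose by 0.39 each (adjusted p = 0.0151 and 0.0173). DUSP1, DUSP2, DUSP5 and DUSP6 averaged 0.23, 0.15, 0.29 and -0.07 with adjusted p of 0.291, 0.540, 0.389 and 0.567. The summed epithelial markers were also higher in KO in every state (4959 to 6136 against 2268 to 2715 FPKM). Most of that sum was KRT8, KRT18 and KRT19, and EPCAM, CDH1, CLDN3 and CLDN4 were also higher in every state. CDX2 differed little, at 7.51, 8.60 and 6.51 FPKM in WT mock, starved and refed cells and 7.10, 9.24 and 7.52 FPKM in KO. The part of these markers in the differences was not tested. The median of all features was 0.16. Relative to that median DUSP10, DUSP9, DUSP4 and DUSP7 were 0.72, 0.70, 0.67 and 0.58 higher, and DUSP16 and DUSP8 0.23. DUSP4, DUSP7, DUSP8, DUSP9 and DUSP10 were called with both rescalings, whereas DUSP16 had adjusted p = 0.0517 with upper-quartile rescaling, and there DUSP6 fell (log2 -0.28, adjusted p = 0.0439). Without WT starved, WT refed, KO starved or KO refed 0 members were called, in fits where at most 16 of all features rose, beside 3867. Without WT mock or KO mock 7 were called, DUSP1 being the addition. Leaving out WT or KO of the same state gives the same log2 average of KO against WT, so such fits are not separate checks. For DUSP10 it was 0.88 both without WT starved and without KO starved. Without the filter at 1 FPKM 2 members were called, DUSP4 and DUSP10.

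Summed over the 10 members, the family's level was 138, 118 and 738 FPKM in WT mock, starved and refed cells and 187, 153 and 722 FPKM in KO. FPKM is scaled by length, so members can be compared. In WT starved cells DUSP6 alone was 46.4% of the sum and DUSP5 20.2%; in WT refed cells these were 9.86% and 54.2%. In KO refed cells DUSP5 was 41.6%, and without it the sum was 422 FPKM against 338 FPKM in WT refed cells. These sums are as deposited. Rescaling would bring the 2 refed sums without DUSP5 closer. It would set the refed totals of all 10 members, 738 FPKM in WT and 722 FPKM in KO, further apart, with WT higher. The factors by which rescaling divides were 0.894 in WT refed and 1.05 in KO refed cells by median ratio. By upper quartile they were 0.884 and 1.10. The nuclear class went from 42.8% of the sum in WT starved to 87.3% in WT refed cells and from 47.7% to 84.9% in KO. The JNK and p38 class was 2.03% to 6.31% in the 6 groups. DUSP6 ranked highest in WT mock and in both starved groups and DUSP5 in KO mock and both refed groups. DUSP10 or DUSP16 ranked lowest in every group. With no spread between replicates, which neighbours in this order differ cannot be said.

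**Figure D4:**
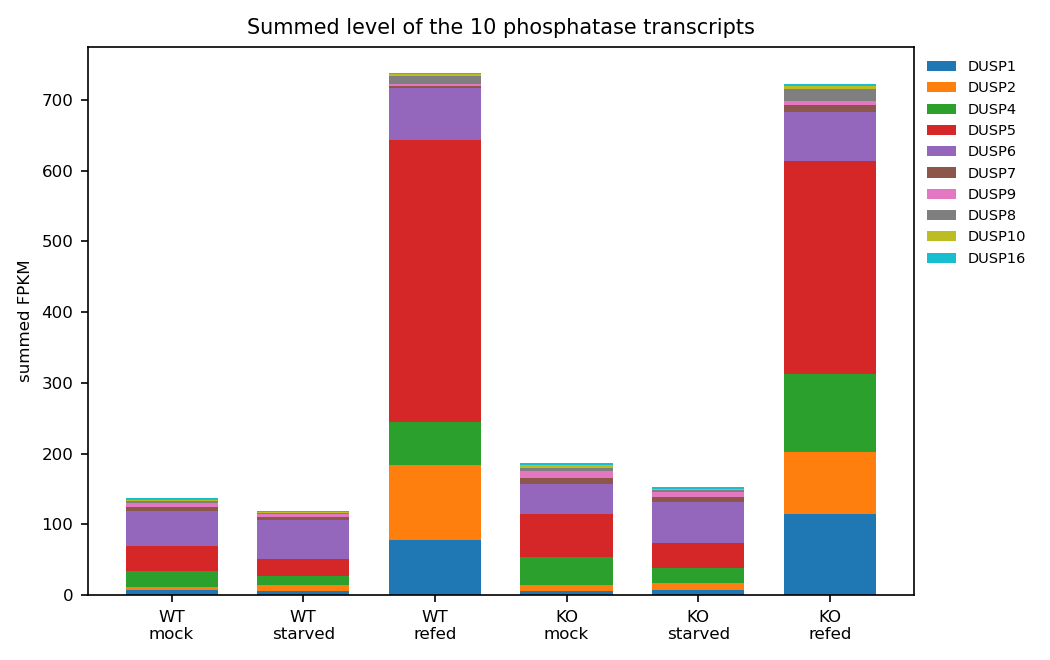
Stacked FPKM of the 10 members (y axis) in each of the 6 groups (x axis), 1 colour per gene. The sum is 118 to 187 FPKM in mock and starved cells and 738 and 722 FPKM in refed WT and KO cells, where DUSP5 is the largest block.

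The features nearest to members in pattern over the 6 groups were found by root mean square distance of centred log2(FPKM + 1) values among 8877 named genes at 5 FPKM or more. For a member that is high in both refed groups, such neighbours are high there by construction, so they are given as a description, with Pearson's r over 6 points that share genotypes and states. FOSL1, an AP-1 subunit, was nearest to DUSP5 (distance 0.23, r = 0.99) at 23.0, 18.6 and 203 FPKM in WT mock, starved and refed cells and 34.6, 25.9 and 216 FPKM in KO. CSRNP1, an early response transcription factor, was nearest to DUSP1 (0.42), EGR3 to DUSP2 (0.37) and MAFF, a small Maf factor, to DUSP8 (0.19), which was followed by the kinase gene PLK3 (0.21) and the deubiquitinase gene USP2 (0.22). DUSP4 was nearest to PLAUR, the urokinase receptor (0.14), and to AREG, the EGF receptor ligand amphiregulin (0.18, r = 0.999). AREG was at 98.6, 44.8 and 297 FPKM in WT cells and at 184, 95.4 and 578 FPKM in KO. DUSP7 was nearest to KLC3 (0.08) and DUSP9 to NAGS (0.06). Both neighbours were higher in KO in every state, as DUSP7 and DUSP9 were, which again follows from how neighbours were chosen.

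The kinases these enzymes act on, and those upstream, were taken as lists. Of 16 genes of the ERK cascade 15 were measured; from starved to refed 0 rose and 0 fell, none with an unadjusted p under 0.05, and the list's median log2 was 0.01 beside -0.01 for all features. On starvation 4 of the 15 fell, where 19.4% of all features did, among them the ERK kinase MAP2K1 (log2 -0.51, limma adjusted p = 0.0223). In KO 5 rose, where 28.7% of all features did, and 1 fell, where 4.58% did: SHC1, an adaptor of growth factor receptors, was at 51.8, 48.3 and 51.3 FPKM in WT cells and at 20.7, 23.3 and 26.0 FPKM in KO (log2 -1.09, SE 0.09, adjusted p = 0.00515). Of 13 JNK, p38 and ERK5 kinases 11 were measured, and 1 rose with serum: MAP2K3, which activates p38, went from 16.1 to 33.4 FPKM in WT and from 15.7 to 33.9 FPKM in KO (log2 1.04, SE 0.07, adjusted p = 0.0152). MAP2K4, which activates JNK and p38, rose in KO (log2 0.72, SE 0.06, adjusted p = 0.00586), as did the p38 kinase MAPK13 (0.32, adjusted p = 0.0261), the 2 of the 11 that did, beside 28.7% of all features. On starvation 3 of the 11 fell, beside 19.4%.

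No other measured phosphatase of these lists was called with serum. Of 16 atypical dual-specificity phosphatases and relatives, most of which lack the kinase-binding domain, 10 were measured. Of these 0 rose and 0 fell from starved to refed, and 2 were higher at an unadjusted p under 0.05 by limma. DUSP3, which acts on ERK and JNK, averaged 0.77 (SE 0.09, limma adjusted p = 0.0536), at 7.93 and 14.8 FPKM in WT starved and refed cells, and DUSP14 averaged 0.59 (SE 0.11, adjusted p = 0.145). In KO 3 of the 10 rose, DUSP11, DUSP3 and STYXL1 (0.42, 0.40 and 0.28), where 28.7% of all features rose, and on starvation 3 fell, where 19.4% did. The tyrosine-specific MAP kinase phosphatases PTPN5, PTPN7 and PTPRR were under 1 FPKM in every group. Of 15 transcripts commonly induced by ERK, 3 rose with serum, where 0.773% of all features did: FOSL1 (log2 3.19, adjusted p = 0.00647), FOS (2.85, adjusted p = 0.0133) and EGR1 (2.18, adjusted p = 0.0414). Counted at 2-fold or more without a test, 4 of the 15 were higher in WT and 5 in KO, beside 1.69% and 1.98% of all features. EPHA2, not called with serum, went from 14.3 to 50.1 FPKM in WT and from 23.7 to 169 FPKM in KO. In KO 2 of the 15 rose and 3 fell, with EPHA2 at log2 1.15 and EGR1 and SPRY4 at -1.21 and -1.16, beside 28.7% and 4.58% of all features. On starvation 3 fell, beside 19.4%. In the same comparison of KO with WT DUSP6 averaged -0.07 and DUSP4 0.83.

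Some values carry limits of annotation. The processed pseudogene DUSP5P1 was at most 0.319 FPKM, beside at least 23.9 FPKM for DUSP5. In GENCODE release 29, DUSP1, DUSP6, DUSP8 and DUSP16 each overlap 1 gene on the opposite strand; whether counting used strand is not given in the sources used here, so reads of those partners cannot be told apart from theirs.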

How the data were processed

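Polyadenylated RNA of HCT116 cells was sequenced in 12 labelled samples, 2 in each of 6 groups. The deposited FPKM were computed by the authors; per the submitters' processing notes, FastQC, cutadapt, TopHat2 and build hg19 were used. Versions, the program that computed FPKM, its annotation and whether a group's single column is 1 sample, a mean or a pool are not given in the sources used here. Depth is unknown: ratios of values under 0.03 FPKM clustered only between WT starved and WT refed (15.4% of 2272 features within 0.005 of 0.9; at most 7.65% at 1 ratio in the other pairs).

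Log2 ratios of (FPKM + 1) were taken over the 13456 features reaching 1 FPKM in any group and counted at 2-fold, in 9 comparisons of single groups without a test. In 3 averaged comparisons limma 3.58.1 (R 4.3.3, variance trend) fitted genotype and state as additive terms. The fit was tried on simulated data with additive shifts and independent noise of equal size. Such data cannot show how reliable the calls are here, where the residual is the interaction of genotype and state. Python 3.11.15, numpy 2.4.6, pandas 2.3.3 and matplotlib 3.10.9 were used. Alternatives were a pseudocount of 0.1, median-ratio and upper-quartile rescaling, other filters, no variance trend and leaving out each group. Members and gene lists were chosen with earlier results of these data known. All 10 members and KDM3A were named; from each of 5 lists up to 3 genes with the largest averaged differences, called ones first; and, for members at 5 FPKM or more that varied 2-fold, the 3 nearest patterns, of which the first is given, and others where they add a value. DUSP5P1 and the markers shown were named in addition. The endothelial markers followed genes already known to be high in WT mock.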

Additional observations from a re-analysis of the deposited data

Results flagged for a closer look

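DUSP5 differed in the direction of its KO against WT difference between culture states. The log2 ratio was 0.77 in mock and -0.41 in refed cells, a difference of -1.18, and 0.50 in starved cells, from which refed cells differed by -0.91. The levels behind these were 35.7 and 61.5 FPKM in WT and KO mock, 23.9 and 34.3 FPKM in starved, and 399.8 and 300.4 FPKM in refed cells. The difference was not tested, since each group has 1 value, and the mock ratio uses the WT mock value in which endothelial transcripts were high, whose part was not tested.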

How the results depend on the processing

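No paired analysis was possible because each group has 1 deposited value per gene. The 5 members at 2-fold or more with serum stayed so in both genotypes under every rescaling, filter and pseudocount tried, with DUSP10 added in WT at a pseudocount of 0.1. At a pseudocount of 0.1 the members past 2-fold were 1 instead of 0 in KO against WT in mock and in starved cells (DUSP10), and 2 instead of 0 in WT starved against mock (DUSP2 and DUSP10). With median-ratio and with upper-quartile rescaling they were 0 instead of 2 in KO against WT in refed cells and 1 instead of 0 in WT starved against mock. Members called without a filter on low values were 2 instead of 6 in KO against WT, 0 instead of 5 in starved against mock and 0 instead of 5 in refed against starved; at 5 FPKM or more, where 8 members remain, starved against mock gave 3. Refed against starved gave 6 instead of 5, with DUSP10, at a pseudocount of 0.1, with median-ratio rescaling and without the features high in WT mock. Leaving out 1 group at a time gave 0 to 7 calls in KO against WT, 0 to 5 in starved against mock and 0 to 3 in refed against starved (each such fit has 1 residual degree of freedom).

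Some uncalled averages turned sign. DUSP2 in KO against WT was -0.0012 with median-ratio and -0.0547 with upper-quartile rescaling, beside 0.15, and -0.0808 to 0.37 when 1 group was left out. DUSP7 in refed against starved was -0.0026 with a pseudocount of 0.1 and -0.0251 with upper-quartile rescaling, beside 0.01, and -0.30 to 0.33 when 1 group was left out. DUSP6 in KO against WT gave -0.14 to 0.0169 and DUSP1 in starved against mock -0.49 to 0.13 when 1 group was left out.

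Over all features, KO against WT gave 3867 that rose and 616 that fell. These were 2051 and 1250 with median-ratio and 1511 and 1630 with upper-quartile rescaling; without the low-value filter they were 741 and 241. Starved against mock gave 785 and 2605, then 1828 and 2193, 2007 and 2011, and 0 and 0 (6366 at an unadjusted p under 0.05 by limma). Refed against starved gave 104 and 7, then 135 and 10, 106 and 12, and 0 and 0 (1928 unadjusted), with 172 and 12 at 5 FPKM or more, 152 and 11 at a pseudocount of 0.1 and 70 and 3 without the variance trend. Leaving out a group, 3 to 5048, 0 to 634 and 0 to 19 features rose in the 3 comparisons. The cause of these shifts was not tested.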
